A study of Mus musculus with 14 samples.

Results

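A total of 204 of the 39220 regions marked by H3K27me3 across the postnatal mouse cerebellum carried a peak in all 3 libraries at postnatal day 14 (P14) and in no library at day 7 (P7) or day 60 (P60). The regions were made by merging the peaks of the 9 P7, P14 and P60 libraries where they overlapped or touched, and the 204 were chosen by the presence and absence of peaks alone, at any place in the genome. Peak presence is therefore given for them as a description and no test was run on it. The same rule gave 575 P7-only and 47 P60-only regions.

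The cerebella came from C57BL/6NCrl mice of both sexes with no engineered allele and no treatment, 3 libraries at each of P7, P14 and P60. By the methods, a P7 replicate combined the most mice, a P14 replicate fewer, and a P60 replicate came from 1 mouse, so that pool size and stage cannot be told apart. Whole cerebellum holds several cell types, and a mark in fewer cells cannot be told from a weaker mark in each cell. A further 5 libraries, from mice with floxed Kdm6b alleles with or without Atoh1-Cre, were not used here because some of their peaks ran past the GRCm38 chromosome ends.

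H3K27me3 is the trimethylation of lysine 27 of histone H3, written by Polycomb repressive complex 2 (PRC2) and removed by the demethylases KDM6A and KDM6B. In mammals PRC2 is typically found at CpG-rich promoters of developmental genes that are not transcribed, where the mark forms broad domains. In the cerebellum it accompanies the passage of granule neuron progenitors, which divide in the external layer after birth, into migrating and then mature granule neurons.

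The sequences printed here come from strong P14-only regions, from CpG-rich ones and from a group of near-copies, and many members belonged to none of these. The 4 sequences printed first are the 2 highest-ranked regions in gene bodies and the 2 highest-ranked in promoters, where the rank was the lowest over the P14 libraries of the strongest peak's percentile of −log10 q within its list. Each is 200 bases of GRCm38 at the centre of the stretch covered in all 3 P14 libraries, with CpG dinucleotides in capitals. They are shown because the strongest P14-only peaks lay in simple tandem repeats and in runs of a single base.
Cbfb intron, chr8:105204812-105205011, plus strand: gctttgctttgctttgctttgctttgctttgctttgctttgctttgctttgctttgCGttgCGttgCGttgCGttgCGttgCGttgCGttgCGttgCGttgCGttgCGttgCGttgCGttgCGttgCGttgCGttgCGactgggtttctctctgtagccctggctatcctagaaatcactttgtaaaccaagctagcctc
Zbtb20 intron, chr16:43182464-43182663, plus strand: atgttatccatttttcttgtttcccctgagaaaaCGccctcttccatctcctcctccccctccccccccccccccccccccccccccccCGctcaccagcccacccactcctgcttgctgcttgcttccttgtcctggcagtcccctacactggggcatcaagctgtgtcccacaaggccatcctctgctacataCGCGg
Cnpy1 promoter, chr5:28207508-28207707, plus strand: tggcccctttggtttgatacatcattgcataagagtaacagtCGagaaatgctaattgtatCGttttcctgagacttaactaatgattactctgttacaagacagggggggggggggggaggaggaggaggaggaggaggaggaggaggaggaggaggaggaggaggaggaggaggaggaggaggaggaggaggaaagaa
Ppp2cb promoter, chr8:33598812-33599011, plus strand: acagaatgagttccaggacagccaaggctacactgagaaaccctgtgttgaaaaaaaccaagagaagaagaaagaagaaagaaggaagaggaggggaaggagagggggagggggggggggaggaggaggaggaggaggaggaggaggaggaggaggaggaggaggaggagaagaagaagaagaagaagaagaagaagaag

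The next 3 are from P14-only regions with over 50 CpG per kb, namely those with the most bases covered in the least covered P14 library. They were picked after their values were seen, and CpG dinucleotides are again in capitals.
Btbd1 promoter, chr7:81829124-81829323, plus strand: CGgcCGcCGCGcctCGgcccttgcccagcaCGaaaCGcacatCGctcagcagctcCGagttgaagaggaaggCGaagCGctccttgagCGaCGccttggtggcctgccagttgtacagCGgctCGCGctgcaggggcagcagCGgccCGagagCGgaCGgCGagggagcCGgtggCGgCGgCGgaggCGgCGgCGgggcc
Intergenic region nearest Arhgap32, chr9:32032922-32033121, plus strand: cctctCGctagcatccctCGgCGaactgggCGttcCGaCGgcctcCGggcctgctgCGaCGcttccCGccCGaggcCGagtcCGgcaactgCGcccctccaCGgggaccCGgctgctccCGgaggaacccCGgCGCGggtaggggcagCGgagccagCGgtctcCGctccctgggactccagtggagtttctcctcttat
Zfp618 promoter, chr4:62965396-62965595, plus strand: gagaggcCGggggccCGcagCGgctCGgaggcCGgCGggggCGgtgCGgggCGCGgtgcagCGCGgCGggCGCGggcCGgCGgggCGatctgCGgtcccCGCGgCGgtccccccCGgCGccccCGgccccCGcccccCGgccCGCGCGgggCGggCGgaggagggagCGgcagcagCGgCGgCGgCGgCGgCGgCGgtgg

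The third set shows members that shared sequence with each other. These 4 narrow regions come from a group of 19 P14-only regions linked by identical stretches of 32 bases, and each is printed for 100 bases inward from the edge at which the peaks of all 3 P14 libraries ended together. Runs of 4 or more C are in capitals.
Region nearest Scp2d1, chr2:144976104-144976203, plus strand: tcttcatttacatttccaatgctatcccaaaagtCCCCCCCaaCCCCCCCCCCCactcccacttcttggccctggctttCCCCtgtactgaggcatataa
Region nearest Eya1, chr1:13952614-13952713, minus strand: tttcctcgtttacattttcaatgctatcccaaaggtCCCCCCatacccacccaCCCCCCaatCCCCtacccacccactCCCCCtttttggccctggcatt
Spata17 intron, chr1:187069182-187069281, minus strand: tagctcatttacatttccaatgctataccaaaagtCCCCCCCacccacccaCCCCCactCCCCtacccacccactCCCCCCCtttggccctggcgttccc
Region nearest Grik2, chr10:49937487-49937586, plus strand: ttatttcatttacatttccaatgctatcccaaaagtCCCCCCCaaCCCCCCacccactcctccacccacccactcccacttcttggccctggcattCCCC

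In these 4 copies the first run of C began after 34 to 36 bases. Of the 85 positions at which a stretch of 16 bases could start, the copies nearest Scp2d1 and Grik2 had 42 in common, and the copy in Spata17 had 8 in common with each of them. The copy nearest Eya1 had 7 in common with Spata17 and none with the other 2.

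Fold enrichment above each library's own background, as MACS2 gave it for the deposited lists, and its −log10 q describe how strong each peak was. Both are set within a library. Across libraries they are used here as ranks, as the weakest of the P14 values and with fixed cut-offs of −log10 q. A given value need not mean the same strength in each library. The read depth of the libraries is unknown. The lists held 9475, 12572 and 12245 peaks at P14, against 8840 to 15388 at P7 and 6905 to 15600 at P60. At P14, Hox promoters, a textbook PRC2 target, carried a peak in all 3 libraries for 33 of 39 genes, and mature granule neuron genes did so for 3 of 31. Of 21951 protein-coding genes, 2340 had such a promoter peak, so the mature granule neuron genes were near the share over all genes.

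Of the 4865 regions with a peak in all 3 P14 libraries, 1455 had one in all 9 libraries, 369 had none at P7 and 1258 had none at P60. The 204 P14-only regions were what both absences left. A further 229 regions missed the rule by a peak in exactly 1 P7 or P60 library, of which 94 met only P7 replicate 1 and 43 only P60 replicate 1, the lists with the most peaks in their stage. The single P7 or P60 peak in those 229 regions had a median −log10 q of 1.98 and covered a median of 363 bp. On the other side of the rule, 844 regions had a peak in 2 P14 libraries and in no other. The weakest P14 peak had a median −log10 q of 2.26 in the P14-only regions, 1.66 in the 229 and 1.75 in the 844. In the 844 it was the weaker of 2 peaks and not the weakest of 3, so that value is not directly comparable. When every list was held to a −log10 q of at least 2, the rule gave 162 regions, and 110 when this was asked of the P14 peaks alone.

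The 204 regions were between 182 and 2260 bp wide, with a median of 342 bp. The median was 346 bp over all regions and 337 bp over P60-only regions. Regions that were in all 3 P14 libraries and also met P7 or P60 had a median width of 1646 bp, and P7-only regions 1348 bp. Together the P14-only regions held 50.7, 75.2 and 86.5 kb of peak in P14 replicates 1, 2 and 3, which was 1.40, 0.965 and 0.935% of all bases under peaks in those lists. They were spread over the chromosomes. Chromosome 1 held 8.82% of them and 5.96% of all regions, chromosome 9 held 7.35 and 4.48%, and X held 6.86 and 5.49%.

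A set of 59 P14-only regions held peaks barely wider than the narrowest peak of each list, which was 99, 150 and 181 bp in the 3 P14 libraries. A region was called narrow when every P14 library had 1 peak there, at most 1.25 times the width of that list's narrowest peak, a limit chosen after the values were seen. Their peaks measured 99 to 123 bp in replicate 1, 150 to 169 bp in replicate 2 and 181 to 198 bp in replicate 3. They were among the strongest peaks of the lists, with median fold enrichments of 8.55, 6.90 and 6.01 in the 3 libraries, where the median of all peaks was 3.88, 3.4 and 3.26. In each library only 3.40, 2.93 and 3.25% of all peaks exceeded those medians. The other 145 regions, called broader here, had median fold enrichments of 4.03, 3.58 and 3.54.

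**Figure D1:**
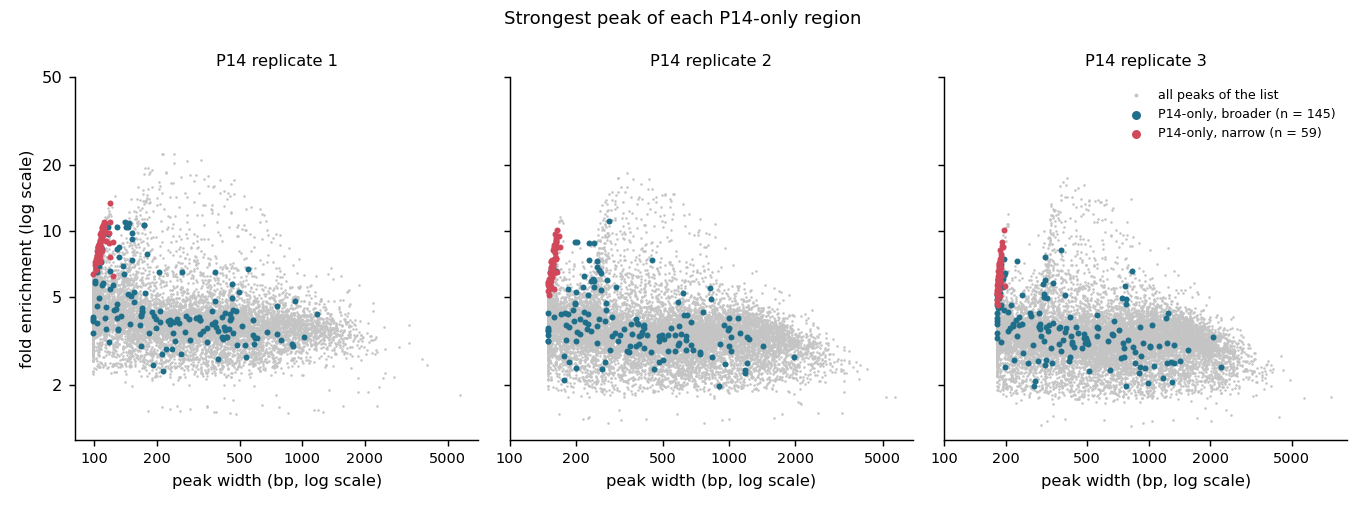
Width of the strongest peak (x axis, bp, log scale) against its fold enrichment (y axis, log scale) for the P14-only regions in each P14 library, over all peaks of that list in grey. The 59 narrow regions form a steep strand at the left edge of each panel, at the narrowest widths of the list, and the 145 broader regions lie within the main cloud with a few above it.

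Narrow regions took the top of the ranking. They made up 9 of the 12 highest-ranked regions, 40 of the highest 50 and all 59 lay in the highest 100. At a −log10 q of 4 or more in all 3 P14 libraries, 81 regions were left, 58 of them narrow. Only 35 of the 4661 other regions in all 3 P14 libraries (0.751%) were narrow in every library that had them, against 28.9% of the P14-only regions. Without P14 replicate 1, narrow regions were 13.4% of 633. Judged in the P14 libraries alone, 118 regions were narrow in all 3, of which 59 were P14-only. By the same measure in their own libraries, 43 regions were narrow in all 3 P7 libraries, of which 0 were P7-only, and 52 in all 3 P60 libraries, of which 3 were P60-only.

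The peaks of the 3 P14 libraries ended together on one side. At 57 of the 59 narrow regions the 3 peaks shared one edge to within 10 bp and not the other, the lower-coordinate edge at 30 and the higher at 27. At the broader regions this was so for 6 of 145. The centres of the 3 peaks lay a median of 41.5 bp apart at narrow regions and 134 bp at broader ones.

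Read inward from the shared edge, the first 60 bases of those 57 regions were 55.1% C, 31.1% T, 7.43% A and 6.35% G. The 60 bases at the centre of all 39220 regions were 25.0% C and 25.1% G. C outnumbered G in this stretch at 51 of the 57 regions, and 45 held a run of 5 or more C, with a longest run of 36. A run of 5 or more C was found at the centre of 5.63% of all regions. The C content fell from 57.5% in the bases 40 to 60 from the edge to 35.7% in the bases 60 to 80. The reads were 50 bases long and single-ended. The 59 regions that were narrow in all 3 P14 libraries but met a P7 or P60 peak showed a similar composition, with a shared edge at 51 and 43.0% C in the first 60 bases. Whether this composition plays a part in the peaks was not tested.

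**Figure D2:**
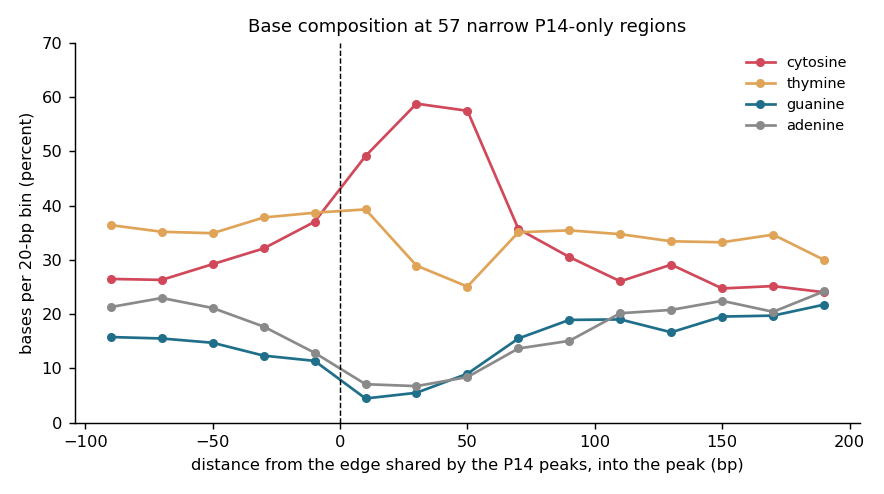
Base composition in bins of 20 bp (y axis, percent of bases) against the distance from the edge that the peaks of the 3 P14 libraries share, read into the peak (x axis, bp), for 57 narrow P14-only regions. Cytosine rises to 58.8% in the bin from 20 to 40 bp and guanine falls to 4.47% in the first bin inside the edge.

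Simple repeats were found at most narrow regions. Within 200 bases at the region centre, a perfect tandem repeat of a unit of 1 to 6 bases over 30 or more bases occurred at 41 of 59 narrow regions (69.5%), at 32 of 145 broader regions (22.1%) and at 5.49% of all regions. A run of 10 or more G or C occurred at 42.4% of the narrow regions and at 1.38% of all regions. A stretch of 50 or more bases of only purines or only pyrimidines occurred at 50.8% of the narrow regions and at 2.72% of all regions. The regions in Cnpy1 and near Ppp2cb, printed above, met each of these limits. The region in Zbtb20 met only the limit for a run of G or C, with a run of 29 bases. In the 59 other regions that were narrow in all 3 P14 libraries but met P7 or P60, a tandem repeat occurred at 32.2%, a run of G or C at 45.8% and a purine or pyrimidine stretch at 3.39%. Among all 6733 narrow regions found in 1 library only, the shares in the same order were 7.84, 1.41 and 4.08%.

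Most of the narrow regions could still be placed by their sequence. A median of 93.8% of the 50-base words sampled in the central 200 bases occurred once in GRCm38, and 15 of the 59 regions had under 50% of such words. Their bases were soft-masked as repeats for a median of 78.3% of the region, against 17.8% for all regions, and they held a median of 5.41 CpG per kb, against 13.6. In all, 42 of the 204 regions shared an identical stretch of 32 bases with another member, simple repeats left out, in 8 groups. The largest of these held the 19 regions from which 4 are printed above, 14 of them narrow.

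Some narrow regions lay far from a TSS. The intronic region of Zbtb20, which encodes a transcriptional repressor (chr16:43182505-43182697), had fold enrichments of 10.0, 8.54 and 7.35 in P14 replicates 1, 2 and 3, and its nearest P7 or P60 peak was 585747 bp away. The region nearest Utp18, a ribosome biogenesis gene, had fold enrichments of 10.4, 8.90 and 7.89. That nearest Eya1, which encodes a transcriptional coactivator, had 9.41, 7.48 and 8.23. The region nearest Eya1 was wholly soft-masked, and only 18.8% of its sampled 50-base words occurred once in GRCm38.

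Of the narrow regions, 8 lay in promoters, defined as 3 kb on each side of a TSS of a protein-coding gene. The region in Cnpy1 (chr5:28207470-28207661) was in an intron 2361 bp from the TSS, with fold enrichments of 9.71, 9.67 and 8.91. The region near Ppp2cb, which encodes a catalytic subunit of protein phosphatase 2A (chr8:33598779-33598968), lay outside the gene 657 bp from the TSS, with fold enrichments of 10.6, 8.78 and 7.44. The region in an intron of Nedd4l, a ubiquitin ligase gene, had 11, 9.28 and 7.0. That of Olfr135, an olfactory receptor gene, had 10.9, 9.50 and 6.78. The Olfr135 region was wholly soft-masked, and only 37.5% of its sampled 50-base words occurred once in GRCm38. At all 4 promoters, the peaks covered between 107 and 191 bp of the window and no P7 or P60 library had a peak anywhere in it.

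In gene bodies, the narrow regions included an intron of Dcc, the netrin receptor that guides axons, with fold enrichments of 9.69, 8.44 and 6.8. An intron of Slc35f5 held another, with 8.53, 7.35 and 6.99. The narrow region in Smad5, a transducer of BMP signals, was intronic, 5198 bp from the TSS, with 7.27, 5.47 and 5.5.

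A few broader regions were as strong. At 23 of the 145 broader regions −log10 q was 4 or more in all 3 P14 libraries, and 15 of these 23 also held a tandem repeat of 30 or more bases. The highest-ranked was in an intron of Cbfb, which encodes the partner of RUNX transcription factors (chr8:105204742-105205051). It had fold enrichments of 10.6, 11.1 and 7.59 and −log10 q of 16.9, 24.2 and 12.3, over 173, 282 and 310 bp. Its sequence, printed above, is a tandem repeat of 5-base units, part of which contain CpG. An intergenic region nearest A630089N07Rik (chr16:98107215-98107660) had fold enrichments of 10.7, 7.37 and 7.48, and its nearest P60 peak was 6191 bp away. The region nearest 4932438A13Rik (chr3:36839251-36839478) was wholly soft-masked, and one of its 50-base words occurred 117770 times in GRCm38.

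The largest class of the broader regions, 66 of 145, was neither CpG-rich (50 CpG per kb or fewer) nor soft-masked over more than 50% of its bases. Of these, 34 lay in gene bodies, 26 between genes and 6 in promoters. Their median width was 720.5 bp, and the weakest of the 3 P14 peaks had a median fold enrichment of 3.13 and a median −log10 q of 1.48. Only 7 of the 66 had a −log10 q of 4 or more in all 3 P14 libraries. A further 55 broader regions were mostly soft-masked, 37 of them between genes, with a median width of 341 bp and a median weakest fold enrichment of 3.79.

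CpG-rich sequence made up a small part of the P14-only regions. Over 50 CpG per kb were found in 25 of the 204 (12.3%), against 8.34% of all regions. The share was 21.6% of P7-only regions, 34.0% of P60-only regions and 24.7% of regions in all 3 P14 libraries that met P7 or P60. Of the 24 P14-only ones that were broader, 16 lay in promoters, and only 3 had a −log10 q of 4 or more in all 3 P14 libraries.

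By the least covered P14 library, the most cover among them was at the promoter of Btbd1, a BTB-domain gene (chr7:81828295-81829976, over the TSS and a coding exon). Its peaks covered 1020, 1423 and 1549 bp with fold enrichments of 3.32, 3.00 and 2.87. Its −log10 q was 1.85, 3.19 and 3.9. Close by, a second CpG-rich region lay at the promoter of Hdgfl3 (chr7:81933501-81935629), covered over 272, 697 and 2069 bp. Neither promoter had a P7 or P60 peak anywhere in its window.

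At Mdga2, which encodes a synaptic cell-surface protein (chr12:67220723-67222982), the peaks covered 430, 1968 and 2245 bp, with fold enrichments of 3.30, 2.69 and 2.42. The cover in replicate 1 was far below that in the other two. At Zfp618, a zinc-finger gene (chr4:62965077-62965958), 674, 588 and 714 bp were covered with fold enrichments of 3.47, 3.72 and 3.56. The CpG-rich region nearest Arhgap32 (chr9:32031870-32033153), 82983 bp from the TSS, was covered over 658, 1202 and 1228 bp. It had the highest −log10 q of the 3 regions whose sequences are printed for their CpG content, 4.38, 6.17 and 6.17.

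The promoters of Sox3, Hmx1 and Mycl, among the 16 CpG-rich ones, were picked after their values were seen. At Sox3, a factor of neural progenitors (chrX:60892956-60894210), 392, 1185 and 1167 bp were covered, with fold enrichments of 2.63, 2.33 and 2.15, and P7 replicate 1 had a peak of 567 bp elsewhere in the promoter. At Hmx1, a homeobox gene (chr5:35388482-35389383), the region was covered over 213, 902 and 770 bp. Its fold enrichments were 2.31, 1.97 and 1.97, with −log10 q of 1.55, 2.47 and 3.86. Elsewhere in the Hmx1 promoter, peaks covered 241 and 623 bp in P7 replicates 1 and 2 and 263 bp in P60 replicate 1. At Mycl, a member of the MYC family (chr4:122996116-122997130), 199, 1015 and 657 bp were covered, with no P7 or P60 peak in the window. The Mycl region had fold enrichments of 3.99, 3.31 and 3.40 and −log10 q of 1.96, 2.07 and 2.15.

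The P14-only region at Hoxb3 (chr11:96340761-96341034) was the single region in the promoter of a gene from 19 lists of neuronal, developmental and cell type genes. It covered 191, 176 and 274 bp, with fold enrichments of 2.48, 2.1 and 1.97. The promoter of Hoxb3 was not free of the mark at P7, where peaks covered 1495, 937 and 1265 bp in the 3 libraries, the nearest of them 896 bp from the region. No P60 library had a peak in it.

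In all, 34 protein-coding genes had a P14-only region in the promoter, of 2340 with a peak in the promoter in all 3 P14 libraries. For 22 of the 34, no P7 and no P60 library had a peak anywhere in the window. For 10 genes at least 1 P7 library did, and for 4 of these, Bcl3, Fscn1, Hoxb3 and Nme9, all 3 P7 libraries did. At Fscn1, which encodes an actin-bundling protein, the promoter was covered in all 9 libraries, over 1667 to 2198 bp at P7, 1513 to 2400 bp at P14 and 238 to 1421 bp at P60. A P14-only region was thus not the same as a promoter marked only at P14.

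**Figure D3:**
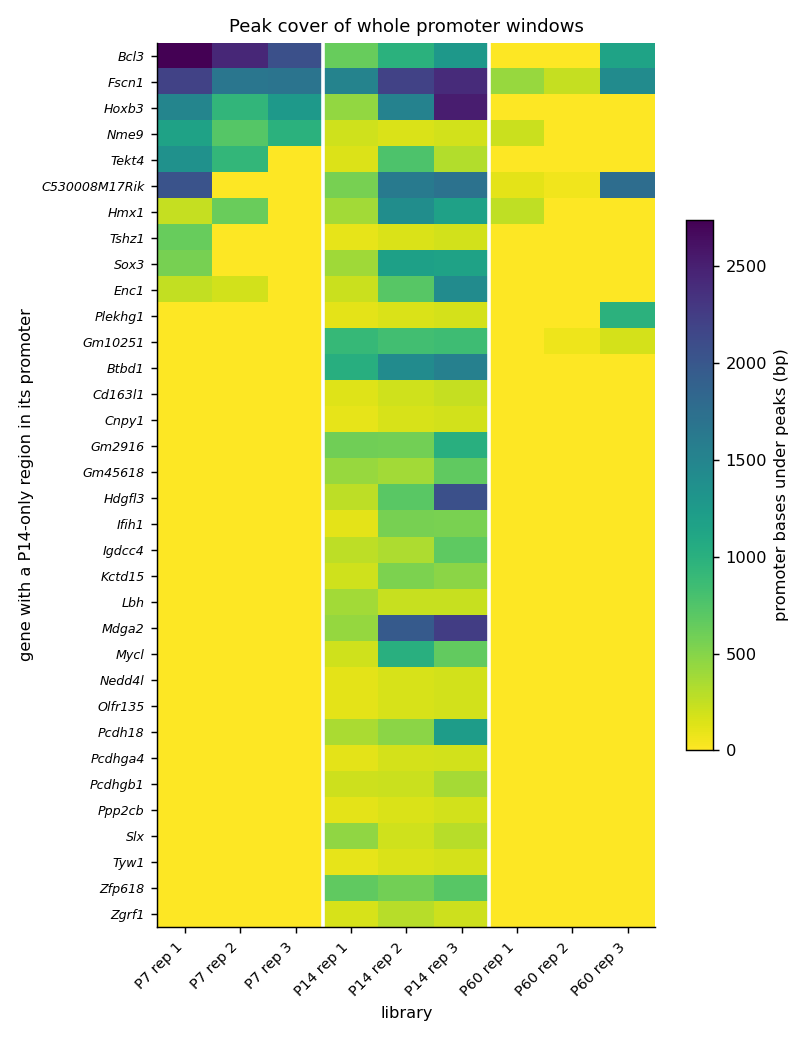
Bases under peaks (colour, bp) in the whole promoter window of the 34 genes with a P14-only region in the promoter (rows) in each of the 9 libraries (columns), genes with most cover at P7 on top. The upper 10 genes have cover in at least 1 P7 library, Plekhg1 and Gm10251 only at P60 besides P14, and the lower 22 at P14 alone.

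Few of the P14-only regions lay in promoters, which held 33 of the 204 (16.2%), gene bodies 73 (35.8%) and intergenic sequence 98 (48.0%). Promoters held 22.0% of all regions, 65.7% of P7-only regions, 38.3% of P60-only regions and 49.7% of the regions in all 3 P14 libraries that met P7 or P60. Gene bodies held 21.9% of all regions. The narrow and broader regions had 13.6 and 17.2% in promoters and 37.3 and 35.2% in gene bodies. These shares describe the sets as the rule made them and were not tested. The promoter share was 25.1% of 303 regions without P7 replicate 1, and 27.3% of 77 regions when peaks under 300 bp were left out. Of the gene body regions, 67 of 73 were intronic, and of the promoter regions 16 of 33 overlapped a coding exon.

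**Figure D4:**
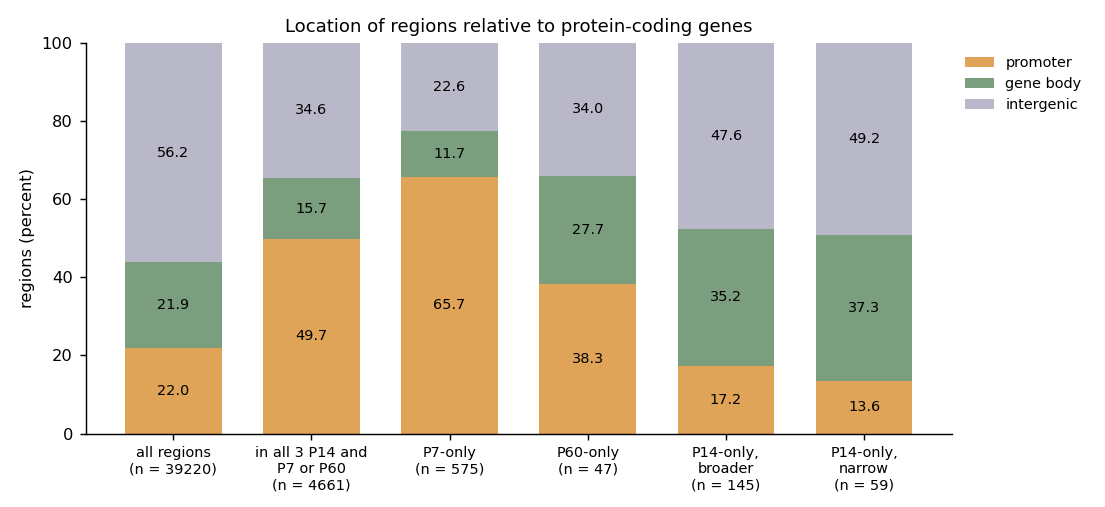
Share of regions (y axis, percent) in promoters (3 kb on each side of a TSS), gene bodies and intergenic sequence for 6 sets of regions, with the number of regions under each bar. Promoters take 13.6 and 17.2% of the narrow and broader P14-only regions and 65.7% of the P7-only regions.

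Of the 19 gene lists, 10 had no P14-only region in a promoter, in a gene body or nearest to a member gene. Among these were the mature granule neuron genes (0 of 31), the secreted morphogens (0 of 45) and the markers of Purkinje cells and of astrocytes and Bergmann glia. Of 26 glutamate receptor genes, Grm7 held a region in an intron, and Grik2 and Grik3 were nearest to one, 148721 and 227615 bp away. Of 40 voltage-gated potassium channel genes, Kcnd3 held one in an intron, with fold enrichments of 5.25, 5.48 and 4.95. Of 54 adhesion and axon guidance genes, Dcc and Ntn1 held one and Epha4 was nearest to one. Of 12 oligodendrocyte lineage markers, only Pdgfra, a marker of oligodendrocyte precursors, held one. It lay over a coding exon, with fold enrichments of 2.91, 2.38 and 2.69 and −log10 q of 1.24, 1.32 and 3.09. Over all protein-coding genes, 0.155% had a P14-only region in the promoter, 0.328% had one in the gene body outside promoters and 0.419% were nearest to an intergenic one, 0.893% by any of these. The glutamate receptors had 11.5% by any of these, the adhesion and axon guidance genes 5.56% and the potassium channels 2.5%, each from 1 to 3 genes. Oligodendrocyte lineage markers had 8.33%, BMP and TGF-beta signal transducers 5%, and progenitor genes and Polycomb genes 3.70% each. Hox genes had 2.56% and transcription factors of other lineages 2%, and each of these lists had 1 such gene. Gene length was not adjusted for.

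Only Ebf3 and Npas3 held 2 P14-only regions each, all 4 intronic and broader. The regions in Ebf3, a transcription factor of developing neurons, lay at chr7:137253490-137254502 and chr7:137221643-137221977. The first was covered over 537, 959 and 989 bp with fold enrichments of 2.67, 2.49 and 2.04, and a P7 peak lay 762 bp away. The second was covered over 167, 264 and 198 bp. In Npas3, which encodes a bHLH-PAS transcription factor, the regions had fold enrichments of 3.94, 3.37 and 3.68 and of 3.63, 3.17 and 3.17. Their −log10 q was 1.69, 1.39 and 2.03 and 1.42, 1.58 and 1.79. In the first of these Npas3 regions, only 12.5% of the sampled 50-base words occurred once in GRCm38.

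Some broader regions lay in near-identical copies, for which single-end reads of 50 bases may be split between places, and these are uncertain. The 6 regions with the most bases covered in every P14 library included 4 such regions besides those at Btbd1 and nearest Arhgap32. A region nearest Gm2244 on chromosome 14 (chr14:19496054-19497190) and one over Gm10251 (chr14:6675626-6677133) had no 50-base word that occurred once. Regions nearest Rapgef2 (chr3:78945991-78946842) and in an intron of Ptprn2 (chr12:116576771-116578011) had 12.5 and 25.0% of such words. Their fold enrichments were 4.56, 4.31 and 4.92 at Rapgef2 and 4.80, 4.01 and 4.25 at Ptprn2. Across all P14-only regions, 70 (34.3%) had under 50% of words that occurred once, against 44.2% of all regions. The share was 4.87% of P7-only regions, 70.2% of P60-only regions and 23.3% of regions in all 3 P14 libraries that met P7 or P60.

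Distances from the P14-only regions to the peaks of the other stages are given without a comparison set. The rule itself left out any overlap with those peaks. The nearest P7 peak was a median of 40.0 kb away and the nearest P60 peak 49.3 kb, and 35 of the 204 had either within 5 kb. For narrow regions the medians were 80.9 and 96.3 kb, and 3 of 59 had either within 5 kb. For broader regions they were 25.1 and 31.3 kb, and 32 of 145 had either within 5 kb.

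Short sequence motifs were searched on both strands in 300 bases at the region centre. The E-box CAGATG, bound by factors such as NEUROD1 and ATOH1, was found in 14.2% of P14-only regions and in 19.5% of all regions. The ZIC motif CAGCAGG was found in 10.3 and 9.11%, the AP-1 motif TGANTCA in 6.86 and 6.05%, and the SP and KLF motif GGGCGG in 13.7 and 11.5%. The homeodomain motif TAATTA was found in 5.39 and 5.36%, AACAATG of SOX factors in 3.92 and 4.11%, and GCGCGC, which overlaps CpG-rich sequence, in 3.92 and 3.50%. The cAMP response element TGACGTCA was found in none of the 204 and in 0.199% of all regions.

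To see whether a P14 library that took no part in the choice also had such regions, the rule was applied with 8 libraries and the regions looked up in the ninth. With P14 replicate 1 left out, 204 of 633 regions chosen by the other 2 P14 libraries had a peak in it (32.2%). With replicate 2 left out it was 211 of 313 (67.4%), and with replicate 3 left out 205 of 519 (39.5%). The background was the share of regions found in exactly 2 of the other libraries, not both of them P14, that had a peak in the library left out, which was 11.5, 20.9 and 22.7% in the same order. The share was above the background in all 3 libraries. The regions found were nearly the P14-only regions themselves, and each background region lacked a peak in at least 1 of the other 2 P14 libraries. The comparison therefore describes how far the P14 lists overlap and is no test of the P14-only regions. No p-value was computed, since regions are not replicates and 3 libraries are too few.

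**Figure D5:**
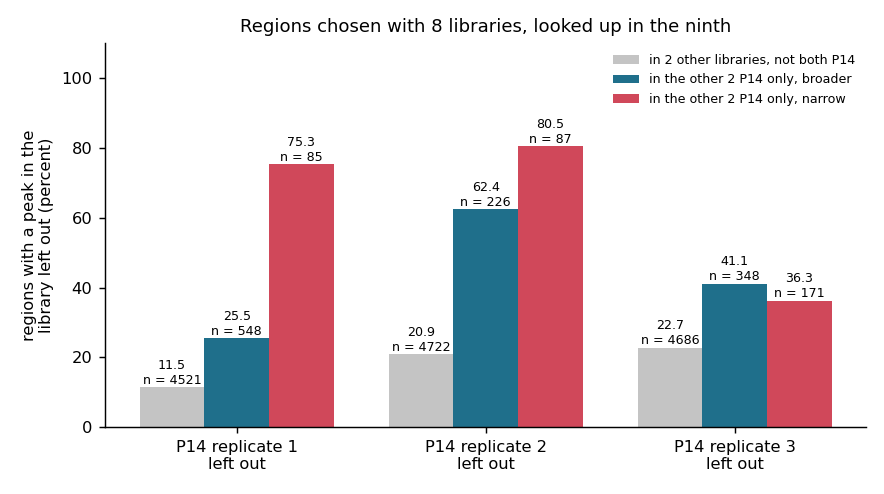
Share of regions with a peak in the P14 library left out (y axis, percent) for each P14 replicate (x axis), with the number of regions over each bar. Grey bars are regions of 2 other libraries that are not both P14, and coloured bars are regions of the other 2 P14 libraries and of no P7 or P60 library, split into narrow and broader.

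Of regions with narrow peaks in the 2 choosing libraries, 75.3, 80.5 and 36.3% were found in replicates 1, 2 and 3, and of broader regions 25.5, 62.4 and 41.1%. In the same procedure at P7, 91.2, 68.0 and 43.6% of the regions were found in replicates 1, 2 and 3, against backgrounds of 25.4, 16.5 and 9.52%. At P60, 47.1, 35.9 and 8.89% were found, against backgrounds of 18.9, 10.4 and 8.86%.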

How the data were processed

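H3K27me3 ChIP-seq of mouse cerebellum was read from 9 deposited peak lists, 1 per library and 3 per stage (P7, P14, P60). Per the submitters' notes and the methods, the authors trimmed 50-base single-end reads with Trimmomatic 0.38, aligned them to GRCm38 (mm10) with STAR 2.7.2b and called broad peaks with MACS2 2.1. No input library is named. The lists give the fold enrichment of each peak, a ratio over the library's own background, and −log10 q, both computed by the authors. The methods name a false discovery rate that equals a −log10 q of 2 for these peaks, but each list began at about 1.00, and 37.4 to 55.7% of the peaks in a list were under 2. The sources used here do not state read depth, and no interval was computed from counts of reads.

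Peaks that overlapped or touched were merged (numpy 2.4.6), and a library had a region if a peak overlapped it by 1 bp or more. Genes and TSSs came from GENCODE vM21, sequence and soft-masking from the GRCm38.p6 genome. Words of 50 bases, taken every 10 bases in the central 200 bases, were counted on both strands of all chromosomes. The region rule was tested on simulated peaks.

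Regions were named by rank (12 highest, 4 highest per location), by cover (6), by a listed gene at the promoter, and by genes with 2 or more regions. Others named were chosen after their values were seen. Of the regions the rule names, 3 are not reported here. The members, lists and rules were chosen with earlier results of these data known. No test across samples was run, because the rule used every age-series library.

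Between 25 and 74 peaks ran past the GRCm38 chromosome ends in each of the 5 lists of the Kdm6b experiment, and 0 in the 9 age-series lists. Those 5 lists were not used, so the planned comparisons with them were not run. Alternatives covered peak strength, width and number, overlap, merging, distance, gene set, chromosomes and each library in turn.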

Additional observations from a re-analysis of the deposited data

How the results depend on the processing

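The number of P14-only regions stayed within 1.5 times of 204 under 6 of 9 alternatives, at 152 to 189. It was 107 when every list was limited to a −log10 q of at least 4, 77 with only peaks of 300 bp or more, and 110 with P14 peaks of −log10 q of 2 or more and absence judged on all peaks. Leaving out 1 library gave 214 to 633, the highest without P14 replicate 1, with 519 without P14 replicate 3 and 313 without P14 replicate 2, where fewer lists had to hold the region. The promoter share of 16.2% was 27.3% with peaks of 300 bp or more, 10.0% with the stronger P14 peaks and 24.0% over all annotated genes, and 13.5 to 25.1% when 1 library was left out. The narrow share of 28.9%, whose alternatives were all chosen after seeing the data, was 36.4 and 57.9% at a −log10 q of 2 and 4 or more. It was 38.8% with equal numbers of peaks, 41.4% with 50% of the region covered, 53.6% with the stronger P14 peaks and 17.6% with a width limit of 1.1 times. Leaving out 1 library gave 13.4 to 32.9%. The causes were not tested. The narrow share has no value for peaks of 300 bp or more, which leave out narrow peaks by construction.

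No paired analysis was possible because the tests planned with the Kdm6b libraries, the replicate block among them, were not run, and no other result came from a test. Also not run for that reason were the comparisons of P14-only with P7-only and P60-only regions in those libraries, the Kdm6b-cKO against Kdm6b-WT share, and the regions lost or gained in Kdm6b-cKO. Read depth is unknown, so the absence of a peak at P7 or P60 is not absence of the mark.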
